A study of Mus musculus with 24 samples.

Results

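Hlf, Mecom, Procr, Mllt3, Fgd5, Esam, Pdzk1ip1, Ctnnal1 and Mycn are 9 genes used to mark or define long-term hematopoietic stem cells (HSCs), and their levels were followed in LSKs, the Lin-Sca-1+c-Kit+ cells of mouse bone marrow in which stem cells and multipotent progenitors are found. They were taken by symbol from a read count table of 24091 genes. Each of the 9 symbols matched 1 row, and all 9 were among the 13520 genes with enough reads to be tested. LSKs were sorted from 24 mice, 6 in each of 4 groups, with 3 females and 3 males per group. WT mice were miR-142+/+ without BCR-ABL, and miR-142 KO mice carried the deletion of miR-142 (miR-142-/-) in every cell. CP CML mice were miR-142+/+ BCR-ABL and BC CML mice were miR-142-/- BCR-ABL, made by crossing, in which BCR-ABL is switched on by withdrawal of tetracycline under the promoter of SCL, a gene of stem and progenitor cells. Both kinds of BCR-ABL mice were sampled 2 weeks after withdrawal, so that the BC CML label names a genotype at an early, common time. All mice were on the B6 background, and no source used here gives their age. The methods of the study state n = 5 per group, whereas 6 libraries per group are labelled, and all were used.

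Long-term HSCs are rare cells that divide seldom, renew themselves and can rebuild the whole blood system after transplantation, while multipotent progenitors divide more often and lose that ability. Much of what sets the stem cell apart is a small set of transcription factors together with surface proteins that allow it to be sorted. Hlf is a PAR bZIP transcription factor that keeps HSCs at rest, and Mecom encodes EVI1, a zinc finger factor needed for HSC renewal. Mllt3, also called AF9, is a subunit of the super elongation complex that keeps HSC genes transcribed. Mycn is the MYC family member found in the most primitive cells. Procr is the endothelial protein C receptor (EPCR, CD201), and Esam is an adhesion molecule of endothelial cells, platelets and stem cells. Fgd5 is an exchange factor for the GTPase Cdc42 whose locus is used for HSC reporter mice. Pdzk1ip1 encodes MAP17, a small membrane protein, and Ctnnal1 encodes alpha-catulin, a relative of alpha-catenin. Several of them, Procr, Esam and Fgd5 in particular, are also expressed in endothelial cells.

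The gene that separates the groups in pairs makes 2 mature microRNAs, which pair with target mRNAs mainly through their seed, bases 2 to 8 from the 5′ end. They are shown because a 7-base match to a seed in a 3′ UTR is the usual mark of a direct target. In the RefSeq sequences (GRCm38.p6) with the seed in capitals, the 5p strand lies at chr11:87756867-87756887 and the 3p strand at chr11:87756903-87756925, both on the plus strand.
mmu-miR-142a-5p: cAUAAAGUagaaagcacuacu
mmu-miR-142a-3p: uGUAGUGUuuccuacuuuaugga
The longest annotated 3′ UTR of each member (GENCODE M21) was searched for the complements of these seeds, ACTTTAT and ACACTAC, on the mRNA strand. A match to the 3p seed was found in 0 of the 9 members, beside 6.97% of 12618 tested genes with a 3′ UTR. A match to the 5p seed was found in 1 of the 9, Mycn, beside 15.9% of those genes. The match in Mycn starts at base 671 of its 913-base 3′ UTR, and the 30 bases around it, at chr12:12936317-12936346 on the minus strand, are shown 5′ to 3′ with the match in capitals.
Mycn 3′ UTR: gagtagatattACTTTATcactttttgaac
The 3′ UTRs of Hlf and Mllt3, at 4223 and 4090 bases the longest of the 9, held neither match, nor did those of Procr (587 bases) and Fgd5 (1398 bases). No match says only that these letters are not in this annotated stretch.

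Total counts per library ranged from 16267965 to 24687077. Mir142 had 68 to 153 counts in the libraries of WT and CP CML LSKs and 0 in all 12 libraries of miR-142 KO and BC CML LSKs, which for a single library allows up to 3 counts. Kit and Ly6a, which encode the c-Kit and Sca-1 of the sorting gate, were detected in all groups but moved with them. Mean levels of Kit were 936 and 801 CPM in WT and miR-142 KO LSKs and 1109 and 807 CPM in the leukemic CP CML and BC CML LSKs, where CPM is the count scaled to a common library total by edgeR. Ly6a was at 41.6 CPM in WT and 51.9 CPM in CP CML LSKs, against 92.3 CPM in miR-142 KO and 110.3 CPM in BC CML LSKs. In BC CML against CP CML, Kit was lower (-0.46 on the log2 scale, adjusted p = 0.000546) and Ly6a higher (1.09, adjusted p = 0.000333) by the test described below. Cd34, a gene of progenitors, had group means of 934 to 1161 CPM. Transcripts of genes that mark other cell types were present and moved with the groups, and whether they came from other cells or from the LSKs was not tested. A list of 4 mast cell genes, led by Cpa3, summed to 71.2 to 337 CPM in WT and 217.5 to 1467 CPM in miR-142 KO LSKs. In CP CML LSKs the sum was 980 to 1892 CPM and in BC CML LSKs 2983 to 6709 CPM, and all 4 genes were above 1 CPM in each group. A list of 8 endothelial genes summed to 90.5 to 144 CPM in WT against 138 to 658 CPM in miR-142 KO LSKs, and to 48.9 to 87.4 CPM in CP CML against 136 to 253 CPM in BC CML LSKs. Most of that difference was Stab2, at 16.9 CPM in WT and 236.5 CPM in miR-142 KO LSKs, while Cdh5, the cadherin of endothelial junctions, was at 3.15 CPM in WT and at or below 1.43 CPM in the other groups. Tie1, an endothelial receptor and the most abundant of the 8 in WT LSKs, was lower in miR-142 KO (54.4 against 79.9 CPM in WT, log2 fold change -0.55, adjusted p = 0.0152) and again in BC CML (29.4 against 47.4 CPM in CP CML, -0.69, adjusted p = 0.00365). Of the 7 tested, 3 were lower and 1 higher in miR-142 KO against WT (median -0.55), and 3 lower and 2 higher in BC CML against CP CML (median -0.69). None of the 8 was at 0 counts throughout a group, and 1 to 3 of them had a mean under 1 CPM. The summed level of 5 B and plasma cell genes, led by Jchain, was 66.5 to 945 CPM in WT and 162.5 to 732 in CP CML, but 26.7 to 39.0 in miR-142 KO and 27.7 to 38.3 CPM in BC CML LSKs. In miR-142 KO against WT Jchain was the 1 gene called of those 5. The 5 megakaryocyte genes, led by Itga2b, had a median sum of 153 CPM in WT and 328 CPM in miR-142 KO LSKs, and all 5 were called higher. The mature neutrophil genes had a median sum of 25.5 CPM in WT and 112 CPM in miR-142 KO LSKs. The erythroid genes, led by Car1, had one of 73.3 CPM in WT, which was 12.9 CPM in CP CML and only 1.25 CPM in BC CML LSKs. The part of these transcripts in the results below was not tested, and in bulk RNA fewer cells of a type and less RNA per cell cannot be told apart.

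The 6 WT mice differed in most of these genes together. Female WT mouse 1 had all 9 members, and male WT mouse 4 had 8 of them, among the top 2 levels of the group, while female WT mouse 3 had all 9 among the bottom 2. Hlf stood at 580.3 and 674 CPM in mice 1 and 4, at 414.5 and 404.5 CPM in mice 2 and 5, and at 313 CPM in both mice 3 and 6. Mycn ran in a like order, at 67.6 and 62.8 CPM in mice 1 and 4, 37.95 and 34.4 CPM in mice 2 and 5, and 27.3 and 24.4 CPM in mice 3 and 6. The mice of each pair are 1 female and 1 male, and the labels give no date or batch for any of them. Results that rest on mice 1 and 4 are given below with and without them.

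Levels were first set side by side as CPM per kilobase of gene length, the only scale on which 2 genes can be compared. In WT LSKs Hlf was the most abundant of the 9 on this scale, at 76.6 ± 25.01 CPM per kb (SD, n = 6), higher than 95.2% of the tested genes. Mycn (15.6 ± 6.74), Pdzk1ip1 (13.9 ± 2.38), Esam (13.0 ± 2.37) and Procr (12.9 ± 5.15 CPM per kb) followed, and these 4 did not differ beyond their spread. Mecom followed at 8.47 ± 2.07 CPM per kb, and Mllt3 (5.27 ± 0.956), Fgd5 (4.63 ± 1.18) and Ctnnal1 (3.14 ± 0.365 CPM per kb) were the lowest, Mllt3 and Fgd5 within each other's spread. In BC CML LSKs Hlf was still the highest, at 22.7 ± 4.18 CPM per kb. Pdzk1ip1 came next at 9.70 ± 1.90, and Fgd5 was the lowest at 1.53 ± 0.484 CPM per kb, higher than only 21.3% of the tested genes. Procr and Mecom lay within each other's spread in WT LSKs, and in WT mouse 2 Procr was the lower of them. In BC CML LSKs Procr was below Mecom, at 3.83 ± 0.772 against 6.82 ± 0.796 CPM per kb.

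**Figure D1:**
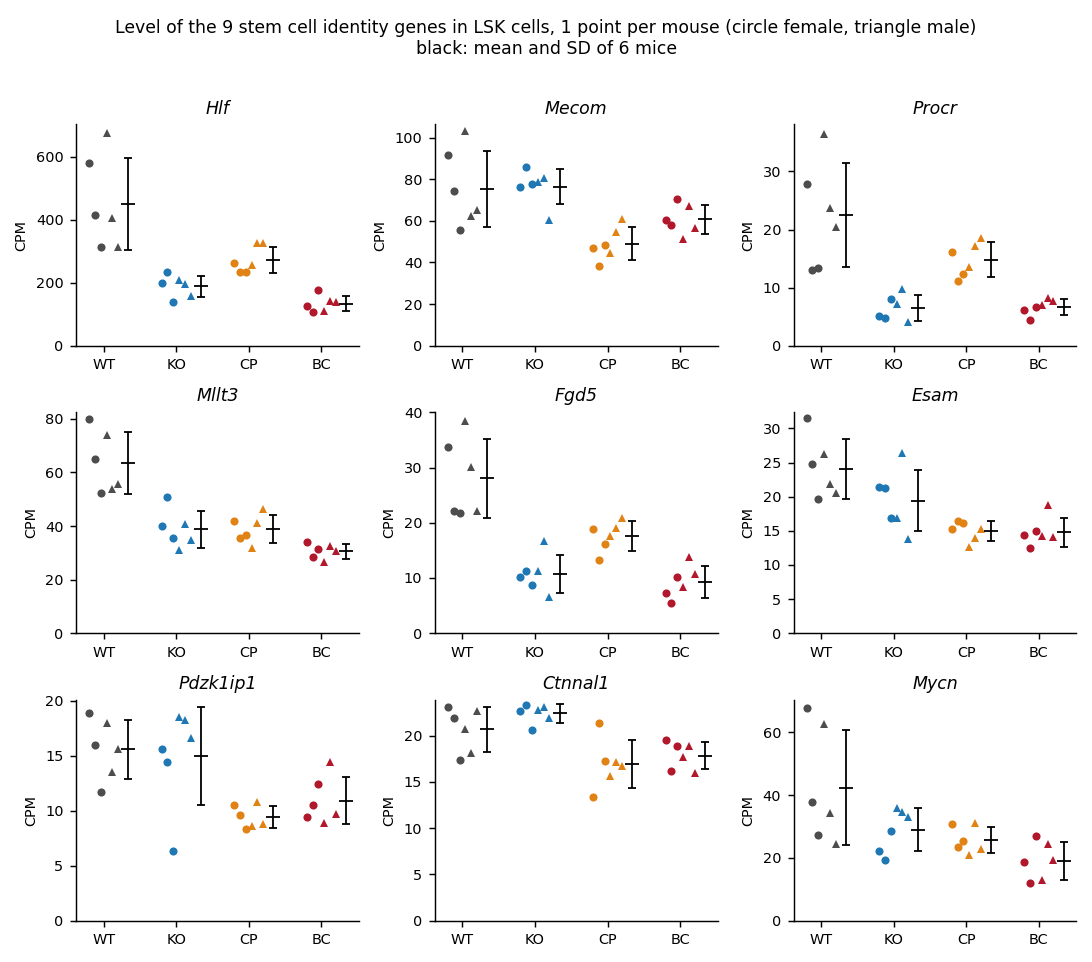
Level of each of the 9 genes in CPM (vertical axis, from 0) in WT, miR-142 KO (KO), CP CML (CP) and BC CML (BC) LSKs, 1 point per mouse, with circles for females, triangles for males and the mean and SD of 6 mice in black. Hlf, Procr and Fgd5 are low in both groups that lack miR-142, whereas for Mecom and Ctnnal1 the miR-142 KO points overlap with the WT points.

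Loss of miR-142 in normal LSKs divided the 9 genes. Hlf, Procr, Fgd5 and Mllt3 fell, to between 29.0% and 61.2% of the WT level, and their miR-142 KO and WT libraries did not overlap. Mecom and Ctnnal1 stood at 101.5% and 108.4% of WT, and Pdzk1ip1 at 96.0%. The comparison asks what the deletion does to stem cell genes before any leukemia. By edgeR's quasi-likelihood test with Benjamini-Hochberg adjustment over all 13520 genes, 4 of the 9 members were called lower and 0 higher, where 16.4% of all tested genes were called lower. The groups did not overlap for those 4, beside 14.5% of all genes. The median log2 fold change was -0.55 for the 9 and 0.0054 for all tested genes.

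Procr, on chromosome 2 at chr2:155751217-155755478 (mm10, plus strand), had the largest drop of the 9. Its levels ran from 13.1 CPM through a median of 22.1 to 36.5 CPM in WT LSKs, and from 4.02 through 6.15 to 9.81 CPM in miR-142 KO LSKs. The highest miR-142 KO mouse was thus below the lowest WT mouse. The log2 fold change was -1.79 (SE 0.241, adjusted p = 4.12e-06), and it was -1.45 (adjusted p = 6.28e-05) without WT mice 1 and 4.

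Fgd5 (chr6:91978965-92076005, plus strand) ran from 21.8 through 26.1 to 38.4 CPM in WT LSKs and from 6.49 through 10.7 to 16.8 CPM in miR-142 KO LSKs, with no overlap. It fell by 1.38 on the log2 scale (SE 0.210, adjusted p = 1.91e-05). Hlf (chr11:90336535-90390917, minus strand) ran from 313 through 409.5 to 674 CPM in WT LSKs and from 139 through 196 to 233 CPM in miR-142 KO LSKs. Every miR-142 KO mouse was below every WT mouse, and the log2 fold change was -1.26 (SE 0.172, adjusted p = 4.82e-06). Hlf lies on the same chromosome as Mir142. Whether its place on the chromosome of the deletion had a part in its level, here or in CML LSKs, was not tested. Mllt3 (chr4:87769925-88033407, minus strand) ran from 52.3 through 60.3 to 79.9 CPM in WT LSKs and from 31.2 through 37.8 to 50.9 CPM in miR-142 KO LSKs. It had the smallest drop of the 4, a log2 fold change of -0.71 (SE 0.117, adjusted p = 4.95e-05). Without WT mice 1 and 4, Fgd5, Hlf and Mllt3 were still called, with log2 fold changes of -1.16, -0.95 and -0.55.

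The other 5 members did not pass. Mecom (chr3:29951296-30548008, minus strand) ran from 55.7 through 69.6 to 103 CPM in WT LSKs and from 60.4 through 78.2 to 85.7 CPM in miR-142 KO LSKs. The miR-142 KO range lay inside the WT range, and the log2 fold change was 0.02, with a 95% interval from -0.23 to 0.27 (adjusted p = 0.913). Its sign turned with the scaling, to -0.03 under upper quartile normalization. Ctnnal1 (chr4:56810935-56865211, minus strand) was the most even of the 9 in miR-142 KO LSKs, from 20.6 through 22.7 to 23.3 CPM, against 17.4 through 21.3 to 23.1 CPM in WT. Its log2 fold change of 0.12 had an interval from -0.06 to 0.29 (adjusted p = 0.322). Pdzk1ip1 (chr4:115088708-115093894, plus strand) ran from 11.7 through 15.8 to 18.9 CPM in WT and from 6.37 through 16.1 to 18.5 CPM in miR-142 KO LSKs, where 1 female mouse, miR-142 KO 3, was far below the other 5 (14.4 to 18.5 CPM). Its log2 fold change of -0.06 had an interval from -0.41 to 0.29 (adjusted p = 0.822), and turned to 0.11 without that mouse.

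Esam and Mycn missed the threshold more narrowly. Esam (chr9:37528089-37538319, plus strand) ran from 19.7 through 23.3 to 31.5 CPM in WT LSKs and from 13.8 through 19.1 to 26.4 CPM in miR-142 KO LSKs, with a log2 fold change of -0.31 (SE 0.133, adjusted p = 0.0731). Mycn (chr12:12936093-12941836, minus strand), the 1 member with a match to a miR-142 seed, ran from 24.4 through 36.2 to 67.6 CPM in WT and from 19.5 through 30.9 to 35.8 CPM in miR-142 KO LSKs, with a log2 fold change of -0.55 (SE 0.235, adjusted p = 0.0692). The groups overlapped for both genes. DESeq2 called Mycn (adjusted p = 0.0442), and upper quartile normalization called Esam (adjusted p = 0.0437). Without WT mice 1 and 4 the log2 fold changes were -0.16 for Esam and -0.11 for Mycn, and without WT mice 3 and 6 they were -0.41 and -0.80, both then past the threshold.

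**Figure D2:**
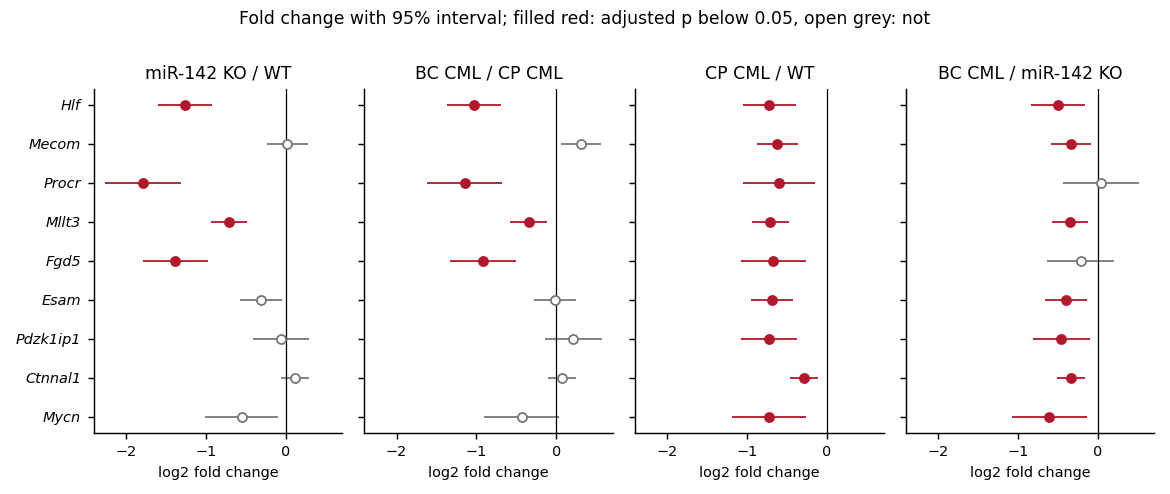
Log2 fold change (horizontal axis) with its 95% interval for each of the 9 genes in 4 comparisons. Filled red points have an adjusted p below 0.05 and open grey points do not. In the 2 panels on the left, for loss of miR-142, only the points of Hlf, Procr, Mllt3 and Fgd5 are filled, whereas all 9 are filled and below 0 in the CP CML / WT panel.

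In CML LSKs the members called after loss of miR-142 were again Hlf, Procr, Fgd5 and Mllt3, all lower in BC CML, at 45.1% to 78.6% of the CP CML level. Mecom, the factor of HSC renewal, stood at 124% and Esam at 98.9% of CP CML. This comparison asks how the miR-142-/- and miR-142+/+ forms of the leukemia differ at the same time after induction. It shares no mouse with the comparison of miR-142 KO with WT. The same test called 4 of the 9 members lower and 0 higher, beside 17.6% of all tested genes called lower. The groups did not overlap for 2 members, Hlf and Procr, beside 20.7% of all genes. The median log2 fold change of the 9 was -0.35, against 0.014 over all genes.

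Procr ran from 11.1 through 14.9 to 18.6 CPM in CP CML LSKs and from 4.36 through 6.87 to 8.21 CPM in BC CML LSKs. Each BC CML mouse was below each CP CML mouse, with a log2 fold change of -1.15 (SE 0.240, adjusted p = 0.000613). Hlf ran from 234.7 through 259 to 325 CPM in CP CML and from 108 through 132 to 175 CPM in BC CML LSKs, again without overlap, with a log2 fold change of -1.03 (SE 0.172, adjusted p = 5.58e-05). Fgd5 ran from 13.2 through 18.2 to 20.8 CPM in CP CML and from 5.40 through 9.29 to 13.8 CPM in BC CML LSKs. The highest BC CML mouse reached just above the lowest CP CML mouse, and the log2 fold change was -0.92 (SE 0.211, adjusted p = 0.00146). Mllt3 ran from 32.0 through 38.9 to 46.3 CPM in CP CML and from 26.5 through 31.0 to 33.9 CPM in BC CML LSKs, with some overlap. Its log2 fold change of -0.35 (SE 0.118) was called (adjusted p = 0.0227), but not without CP CML mouse 6 (adjusted p = 0.0553), nor in the females (adjusted p = 0.269) or the males (adjusted p = 0.0660) fitted alone. Hlf and Procr were called in each sex alone, and Fgd5 in the females.

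Of the members that did not pass, Mecom was the nearest to the threshold and pointed the other way. It ran from 38.5 through 47.6 to 60.9 CPM in CP CML and from 51.3 through 59.3 to 70.4 CPM in BC CML LSKs, with a log2 fold change of 0.31 (SE 0.130, adjusted p = 0.0655). It was called higher when only these 12 libraries were fitted (adjusted p = 0.0350) and without CP CML mouse 6 (adjusted p = 0.0389). It was also called without WT mice 1 and 4 (0.29, adjusted p = 0.0278). Mycn ran from 20.9 through 24.4 to 31.1 CPM in CP CML and from 11.9 through 18.9 to 26.9 CPM in BC CML LSKs, with a log2 fold change of -0.43 and an interval from -0.90 to 0.04 (adjusted p = 0.160). The groups overlapped for Mycn. The intervals of the other 3 were -0.28 to 0.25 for Esam, -0.15 to 0.57 for Pdzk1ip1 and -0.10 to 0.25 for Ctnnal1, each around 0 on the log2 scale.

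Whether the 2 effects of miR-142 loss differ was tested as the difference between the log2 fold changes in CML and in normal LSKs. By the quasi-likelihood test 0 of the 9 members passed, beside 3.99% of all tested genes, with 1 member at an unadjusted p below 0.05 and 0 called by the likelihood ratio test or DESeq2. That member was Mllt3, whose difference was 0.36 (95% interval 0.04 to 0.68, adjusted p = 0.227), the effect in CML being the smaller. Procr had a wide interval, from -0.02 to 1.30 around a difference of 0.64. The intervals of Hlf (-0.24 to 0.70) and Fgd5 (-0.12 to 1.04) also left room for effects of unequal size. The sign of the difference was positive for 8 of the 9 members, Ctnnal1 (-0.04) being the other, while 50.3% of all tested genes were below 0. The 9 differences rest on the same mice, so that their signs are not separate pieces of evidence. The median difference of the 9 was 0.29. It was 0.13 without WT mice 1 and 4 and 0.39 without WT mice 3 and 6.

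CML with intact miR-142 touched all 9 genes. Each of them was lower in CP CML than in WT LSKs, at 60.5% to 65.9% of the WT level for 8 of them and at 82.0% for Ctnnal1. The same test called all 9 lower, beside 22.9% of all tested genes, and the median log2 fold change was -0.69 against -0.02 over all genes. This comparison shares the WT mice with that of miR-142 KO with WT, and the CP CML mice with that of BC CML with CP CML. The groups did not overlap for 4 members, Mllt3, Fgd5, Esam and Pdzk1ip1, beside 21.8% of all genes.

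Mllt3 had the smallest adjusted p of the 9. Its highest CP CML mouse, at 46.3 CPM, was below its lowest WT mouse, at 52.3 CPM, and its log2 fold change was -0.71 (SE 0.117, adjusted p = 5.28e-05). Esam ran from 12.6 through 15.3 to 16.4 CPM in CP CML LSKs, below the lowest WT mouse at 19.7 CPM, with a log2 fold change of -0.69 (SE 0.135, adjusted p = 0.000306). Pdzk1ip1 ran from 8.31 through 9.21 to 10.8 CPM in CP CML LSKs, below the lowest WT mouse at 11.7 CPM, with a log2 fold change of -0.73 (SE 0.182, adjusted p = 0.00255). Mecom, which loss of miR-142 had left near its WT level, had a log2 fold change of -0.62 (SE 0.130, adjusted p = 0.000577), and only its highest CP CML mouse (60.9 CPM) reached into the WT range. Ctnnal1 ran from 13.3 through 16.9 to 21.4 CPM in CP CML LSKs, overlapped with WT and had the smallest drop, of 0.29 on the log2 scale (SE 0.090, adjusted p = 0.0122).

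These calls rested in part on the WT mice with the highest levels. Without WT mice 1 and 4, 5 of the 9 members passed instead of 9, and the median log2 fold change was -0.40. Hlf (-0.40), Mecom (-0.38), Mllt3 (-0.54), Esam (-0.53) and Pdzk1ip1 (-0.58) were still called. Procr went from -0.60 (adjusted p = 0.0378) to -0.24 (adjusted p = 0.423) and Mycn from -0.72 (adjusted p = 0.0156) to -0.26 (adjusted p = 0.336). Fgd5 went from -0.67 to -0.44 (adjusted p = 0.121) and Ctnnal1 from -0.29 to -0.23 (adjusted p = 0.0749). Without WT mice 3 and 6 all 9 passed. With a single mouse left out, the call of Procr was lost in 7 of 24 fits, those without WT mouse 1, 4 or 5 or CP CML mouse 1, 2, 3 or 4 (adjusted p up to 0.156). That of Mycn was lost without WT mouse 1 or 4 (adjusted p up to 0.0601). With 3 mice a group, 4 members passed in the females alone and 4 in the males alone, all lower.

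**Figure D3:**
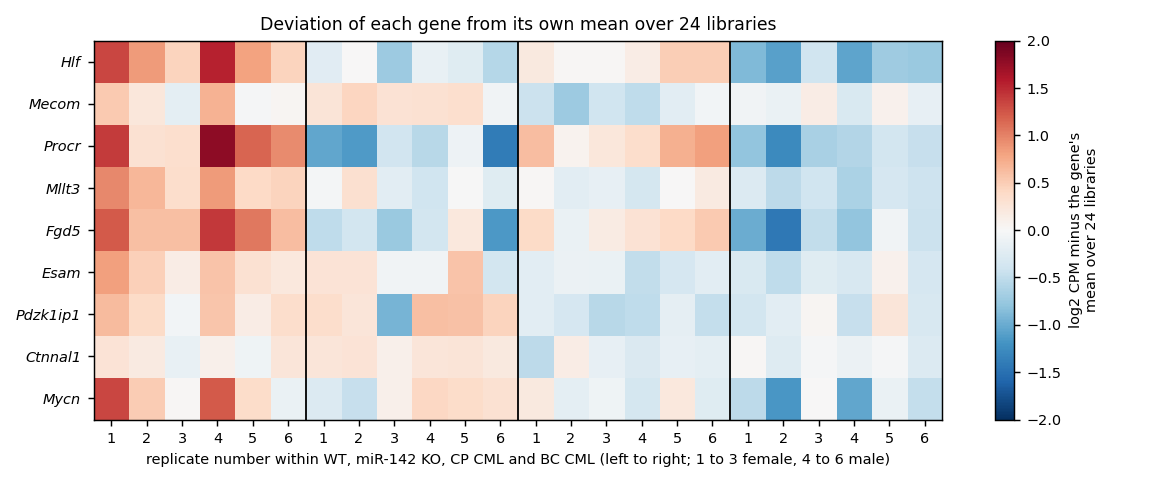
Log2 CPM of each of the 9 genes (rows) in each of the 24 libraries (columns), minus the mean of the gene over all 24, with red above and blue below that mean. WT mice 1 and 4 are the reddest columns, and Procr, Hlf and Fgd5 are blue in most miR-142 KO and BC CML libraries, where Mecom and Ctnnal1 are paler.

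Among miR-142-/- mice, those with BCR-ABL had lower levels of another set of the genes. In BC CML against miR-142 KO LSKs, Ctnnal1, Hlf, Esam, Mllt3, Mecom, Mycn and Pdzk1ip1 were lower, at 65.7% to 79.7% of the miR-142 KO level, while Procr stood at 103% and Fgd5 at 86.3%. The test called 7 of the 9 lower, beside 19.3% of all tested genes. Ctnnal1 was the firmest, with 15.98 through 18.3 to 19.5 CPM in BC CML LSKs, all below the lowest miR-142 KO mouse at 20.6 CPM (log2 fold change -0.33, SE 0.090, adjusted p = 0.00611). It was the 1 member without overlap, beside 10.6% of all genes. Mycn had the largest drop, of 0.61 on the log2 scale (SE 0.238, adjusted p = 0.0465), and Hlf fell by 0.50 (SE 0.171, adjusted p = 0.0241), both with overlap. Procr, already at 4.02 to 9.81 CPM in miR-142 KO LSKs, was at 4.36 to 8.21 CPM in BC CML LSKs, with an interval of the log2 fold change from -0.44 to 0.51. Most of these calls stood close to the threshold. Leaving out 1 mouse left between 2 and 7 of them, with 4 or fewer without miR-142 KO mouse 2, 4 or 5 or BC CML mouse 1, 2, 4 or 6, and 2 without BC CML mouse 2. Only females gave 0 calls by the quasi-likelihood test and only males 3.

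Between WT and BC CML LSKs, which differ in both miR-142 and BCR-ABL, all 9 members were lower in BC CML (9 called, beside 32.1% of all tested genes). Hlf stood at 29.6% and Procr at 29.7% of the WT level, Fgd5 at 33.2%, Mycn at 44.9% and Mllt3 at 48.2%. Esam (61.5%), Pdzk1ip1 (70.0%), Mecom (80.5%) and Ctnnal1 (86.3%) kept more of it. Every BC CML mouse was below every WT mouse for Hlf, Procr, Fgd5, Mllt3 and Esam, 5 of the 9, beside 39.2% of all genes whose groups did not overlap. Without WT mice 1 and 4, 6 members were called.

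The mice with BCR-ABL alone, CP CML, were also set against the mice with the deletion alone, miR-142 KO. The test called 7 of the 9 members, beside 36.6% of all tested genes in either direction. Of these, 3 were higher in CP CML (Procr at 227.5%, Fgd5 at 163% and Hlf at 145% of miR-142 KO), and 4 were lower (Pdzk1ip1 at 63.0%, Mecom at 64.0%, Ctnnal1 at 75.6% and Esam at 77.0%). Over all tested genes 17.2% were called higher and 19.4% lower. The groups did not overlap for 2 members, Procr and Hlf, beside 14.8% of all genes. Mllt3 was at 38.9 ± 5.16 CPM in CP CML and 38.9 ± 6.87 CPM in miR-142 KO LSKs (SD, n = 6), a log2 fold change of 0.0002 with an interval from -0.23 to 0.23.

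Ratios of 2 members within the same library do not depend on its depth or scaling. They were chosen after the values were seen and are given as a description. Hlf to Mecom, per kb, was 7.28 to 9.89 in the 6 WT libraries and 7.37 to 9.24 in the 6 CP CML libraries, but 2.71 to 4.12 in miR-142 KO and 2.82 to 3.76 in BC CML libraries. The 12 miR-142+/+ libraries thus lay in 1 range and the 12 miR-142-/- libraries in another, with nothing between 4.12 and 7.28, also for the WT mice that differed in Hlf itself. Procr to Mecom was 0.899 to 1.94 in WT and 1.30 to 1.76 in CP CML, and 0.287 to 0.623 in miR-142 KO and 0.383 to 0.699 in BC CML libraries. Fgd5 to Mecom was 0.436 to 0.709 and 0.492 to 0.586 in the miR-142+/+ groups, and 0.158 to 0.306 and 0.136 to 0.3004 in the miR-142-/- groups. Esam to Mecom showed no such gap, with 1.22 to 1.69 in WT against 1.02 to 1.57 in miR-142 KO libraries, and 1.20 to 2.04 in CP CML against 1.01 to 1.34 in BC CML libraries. Procr to Pdzk1ip1 left no gap either, with 0.529 to 1.31 in WT and 0.746 to 1.37 in CP CML libraries, against 0.156 to 0.816 in miR-142 KO and 0.267 to 0.511 in BC CML libraries. Here the overlap came from 1 library, miR-142 KO 3, the mouse with the low Pdzk1ip1 level. The other miR-142 KO libraries ran from 0.156 to 0.348.

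**Figure D4:**
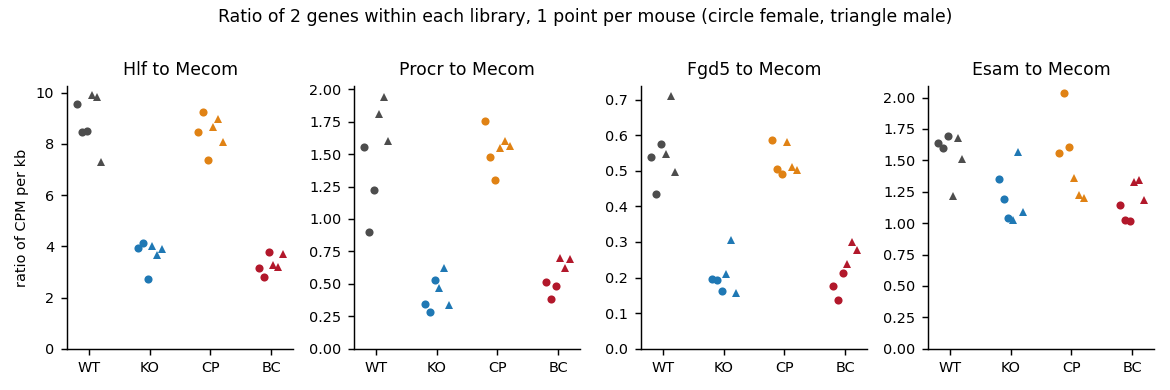
Ratio of Hlf, Procr, Fgd5 and Esam to Mecom in CPM per kb (vertical axis, from 0) within each library, 1 point per mouse, with circles for females and triangles for males. The first 3 ratios lie in separate ranges in WT and CP CML against miR-142 KO and BC CML libraries, and the ratio of Esam to Mecom overlaps between all 4 groups.

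For each member the 2 genes with the most similar profile were found among 11678 named genes, by the root mean square (RMS) difference of log2 CPM over the 24 libraries after centring each gene, a measure in which 0 is an identical profile. Libraries of a group share their genotype, so that likeness over 24 libraries is largely likeness over 4 groups. Hlf was nearest to Rasl12 (0.204) and Myo5c (0.207). Rasl12 went from a mean of 3.296 CPM in WT to 0.988 CPM in BC CML LSKs and Myo5c, an unconventional myosin, from 20.5 to 6.57 CPM. Procr was nearest to Prex2 (0.295), an exchange factor for Rac, and to Fgd5, another of the 9 (0.297). Fgd5 was nearest to Maged1 (0.232) and Cnrip1 (0.251), which like it were lower in the miR-142-/- groups, Maged1 at 61.5 CPM in WT and 26.5 CPM in miR-142 KO LSKs. Mecom was nearest to Hoxa10 (0.142), a homeobox factor of stem and progenitor cells, and Eya1 (0.183), and Ctnnal1 to Rcor3 (0.135) and Arl4a (0.144). Mllt3 was nearest to the chromatin remodeller Smarca2 (0.180) and to Sesn3 (0.191), and Mycn to Atat1 (0.281) and Arhgef5 (0.288). The nearest genes of Esam were Fbxo10 (0.182) and Mapk1ip1 (0.185), and those of Pdzk1ip1 were Zfp563 (0.210) and Parp11 (0.217). Among the 9 themselves the closest pairs were Mllt3 with Esam (0.246), Mecom with Ctnnal1 (0.260), Mecom with Esam (0.272) and Hlf with Fgd5 (0.274). The farthest was Procr with Pdzk1ip1 (0.901).

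The families and partners of the members were examined next, by their roles. Of the PAR bZIP family with its repressor (4 genes), Hlf was the 1 gene called after loss of miR-142, in normal and in CML LSKs alike. Dbp had log2 fold changes of -0.14 and -0.11 there and Tef of -0.11 and -0.17, none of them past the threshold. In CP CML against WT LSKs Dbp (-0.69, adjusted p = 0.000329) and Tef (-0.22, adjusted p = 0.0395) were lower with Hlf, and Nfil3, the repressor that binds the same sites, was higher (0.61, adjusted p = 0.00690). Of the MYC family and its partners, 11 genes, 2 were called lower and 0 higher in miR-142 KO against WT LSKs, near the 16.4% of all genes called lower. Myc itself was not called in any of these 3 comparisons (0.07 in miR-142 KO against WT, 0.20 in CP CML against WT and -0.22 in BC CML against CP CML). Mycl fell in all 3, from 4.68 CPM in WT to 1.69 in miR-142 KO and 1.04 in CP CML, and to 0.187 CPM in BC CML LSKs. Prdm16, the closest relative of Mecom and itself a stem cell factor, was lower in miR-142 KO against WT (-0.55, adjusted p = 0.00148) and in BC CML against CP CML LSKs (-0.54, adjusted p = 0.00188), where Mecom was not.

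The partners of the surface and signalling members came next. The thrombin receptor F2r, through which EPCR-bound protein C signals, had log2 fold changes of 0.46 in miR-142 KO against WT (adjusted p = 0.00706) and 0.83 in BC CML against CP CML LSKs (adjusted p = 2.50e-05). Thbd, thrombomodulin, was also higher, by 0.62 (adjusted p = 0.000557) and 1.17 (adjusted p = 2.48e-07). In CP CML against WT LSKs, where Procr was also called lower, F2r (0.15, adjusted p = 0.354) and Thbd (-0.17, adjusted p = 0.3003) did not pass. The ligand Proc had too few reads to be tested. Among the 6 genes of the FGD family, Fgd5 included, 4 were lower and 0 higher after loss of miR-142 in normal LSKs and likewise in CML. Over all tested genes 16.4% and 17.6% were called lower there. Besides Fgd5, Fgd4 (-0.82 and -0.72) and Fgd1 (-0.55 and -0.84) were called in both comparisons. Of the catenins beside Ctnnal1, Ctnnb1, beta-catenin, rose by 0.72 (adjusted p = 6.77e-11) and 0.81 (adjusted p = 4.39e-12). Ctnnd1 rose by 0.47 and 0.35, while Jup fell by 0.53 and 0.36. Ctnna1, alpha-catenin, was called only in BC CML against CP CML LSKs, where it was higher (0.30, adjusted p = 0.00178). Of 4 tested junction adhesion kin of Esam, 1 was higher and 2 lower in miR-142 KO against WT, and 1 higher and 1 lower in BC CML against CP CML LSKs. Of the 8 partners of Mllt3 in elongation, 3 were higher and 0 lower in miR-142 KO against WT, and 2 were called in each direction in BC CML against CP CML LSKs. These counts for the kin of Esam and the partners of Mllt3 are small. Over all tested genes 19.9% were called higher and 16.4% lower in the first comparison, and 20.4% and 17.6% in the second. Pdzk1, the scaffold that binds MAP17, fell by 2.44 in miR-142 KO against WT LSKs (adjusted p = 0.00302), from 1.46 ± 1.39 to 0.265 ± 0.170 CPM (SD, n = 6). Its levels were thus low and varied widely among the WT mice. In BC CML against CP CML LSKs it was not called (-1.24, adjusted p = 0.0887).

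Of 44 other genes ascribed to long-term HSCs, 42 were tested. In miR-142 KO against WT LSKs 15 were lower and 6 higher (median log2 fold change -0.30), and in BC CML against CP CML LSKs 20 were lower and 6 higher (median -0.39). In CP CML against WT LSKs 16 were lower and 8 higher (median -0.39), and in BC CML against miR-142 KO LSKs 17 were lower and 4 higher (median -0.35). Over all tested genes the shares called lower in these 4 comparisons were 16.4%, 17.6%, 22.9% and 19.3%, and the shares called higher 19.9%, 20.4%, 22.5% and 20.3%. Called lower after loss of miR-142 were Robo4, a guidance receptor of stem cells and endothelium (-1.31 in normal and -1.26 in CML LSKs), Gimap1 (-0.93 and -0.69) and Ndn, the growth suppressor necdin (-2.06 and -1.60). Higher in both were Cd63 (1.16 and 0.94), Gata3 (1.89 and 2.15), Hoxb5 (1.34 and 1.45) and Ly6a, the Sca-1 gene (1.15 and 1.09). Itga6 was higher in normal (0.65, adjusted p = 7.56e-07) and in CML LSKs (0.33, adjusted p = 0.00161). Sult1a1 and the imprinted RNA Meg3 were the farthest down in BC CML against CP CML LSKs, at -2.50 and -2.68. In CP CML against WT LSKs the signalling inhibitor Socs2 rose by 1.97, and Gata2 by 0.65, while Slamf1 (CD150), Art4 and Angpt1 fell by 0.85, 0.94 and 0.68. Slamf1 (-0.44 and -0.53) and Art4 (-0.84 and -0.49) were also called lower after loss of miR-142 in normal and CML LSKs. After that loss Gata2 was called higher only in normal LSKs (0.56), and Angpt1 (-0.35) and Socs2 (-0.74) lower only in CML LSKs.

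Genes of multipotent and lineage-primed progenitors had more calls higher than lower in every comparison of 2 groups except CP CML against miR-142 KO. Of 24 tested genes, 12 were higher and 5 lower in miR-142 KO against WT LSKs (median 0.49), 10 higher and 5 lower in BC CML against CP CML LSKs (median 0.31), and 11 higher and 5 lower in CP CML against WT LSKs (median 0.17). These counts stand beside the 19.9%, 20.4% and 22.5% of all genes called higher there. In BC CML against miR-142 KO 7 were higher and 4 lower (median 0.08), beside 20.3% and 19.3% of all tested genes. In BC CML against WT LSKs 14 were higher and 8 lower (median 0.67), beside 32.9% and 32.1%. In CP CML against miR-142 KO LSKs 3 were higher and 6 lower (median -0.04), beside 17.2% and 19.4%. The granule protease gene Ctsg rose by 2.05 in miR-142 KO and by 1.97 in CP CML LSKs, each against WT. Prtn3 rose by 1.40 and 1.501 there, Ms4a3 by 2.15 and 2.58, and Gfi1 by 0.56 and 0.55. When BC CML was set against CP CML LSKs, Ctsg (0.96), Prtn3 (0.64) and Gfi1 (0.62) were higher, and Ms4a3 (0.69) did not pass. Flt3, a receptor of lymphoid-primed progenitors, was lower after loss of miR-142, at -1.24 in normal and -1.23 in CML LSKs. Notch1 was lower in miR-142 KO (-1.33) and CP CML (-0.87), each against WT, and in BC CML against CP CML LSKs (-0.65). Cd33 was lower in miR-142 KO against WT (-1.64) and in BC CML against CP CML LSKs (-0.50). Satb1 was lower in the same comparisons (-0.40 and -0.48). Cd27 was lower in CP CML against WT (-0.57) and higher in BC CML against CP CML LSKs (0.19).

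**Figure D5:**
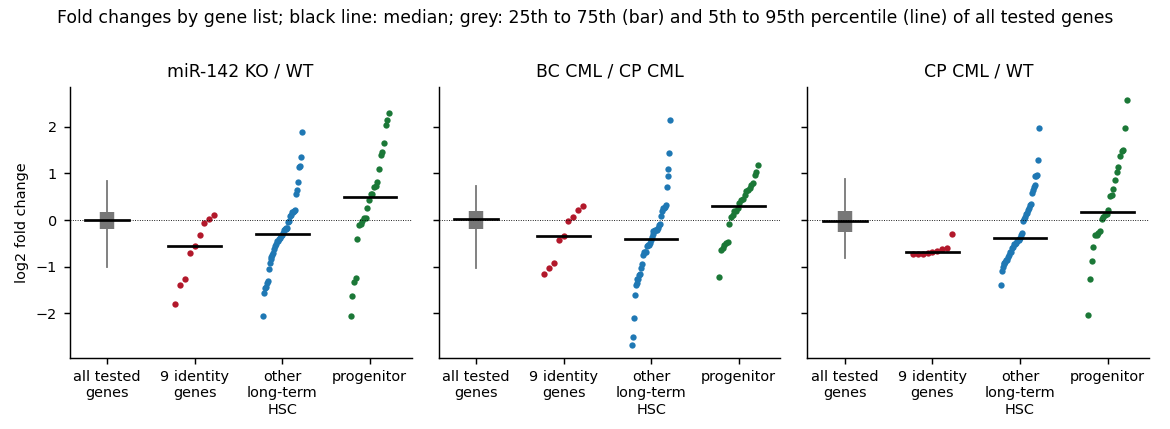
Log2 fold changes (vertical axis) in 3 comparisons for all tested genes (grey, 5th, 25th, 75th and 95th percentile), the 9 identity genes (red), the other tested long-term HSC genes (blue) and the tested progenitor genes (green), 1 point per gene, with the median as a black line. In CP CML against WT LSKs the 9 genes lie close together between -0.73 and -0.29, and after loss of miR-142 they spread from -1.79 to 0.12.

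Females and males were compared over all 24 mice. By the quasi-likelihood test 0 of the 9 members differed, beside 0.651% of all tested genes, with 2 at an unadjusted p below 0.05 and 0 called by the likelihood ratio test or DESeq2. These were Procr, at 76.5% in females of the level in males (adjusted p = 0.202), and Fgd5, at 81.4% (adjusted p = 0.267).

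Promoters were searched for short motifs that factors of stem cells can bind, because the same members were called lower after loss of miR-142 in normal and in CML LSKs. RefSeq windows (GRCm38.p6) from 250 bases before to 50 after the start were at hand for 8 of the 9 members, 10 windows in all, and 32851 over all genes. Both strands were searched for 6 motifs, none of which overlapped another where it was found. The E-box CAGCTG was in 3 of the 10 windows, those of Procr, Mllt3 and Pdzk1ip1, and in 16.3% of all windows. The E-box of MYC proteins, CACGTG, was in 1 of the 10, that of Pdzk1ip1, and in 7.15% of all windows. The site of PAR bZIP factors such as Hlf, TTACGTAA, was in 0 of the 10 and in 0.119% of all. The GATA motif AGATAA, found in 11.2% of all windows, was likewise in 0 of the 10. So were the ETS motif GGAAGT, found in 23.8% of all windows, and the RUNX motif TGTGGT, found in 16.8%. The 2 members called after loss of miR-142 that hold a motif are shown with it in capitals, 30 bases 5′ to 3′ on the strand of the gene. The Procr motif begins 34 bases before the start (chr2:155751171-155751200) and the Mllt3 motif 202 bases before it (chr4:88033592-88033621).
Procr promoter: caggagggcccaCAGCTGggaggggccgag
Mllt3 promoter: gggatggctcccCAGCTGgccgctctccca
No window of Hlf or Fgd5 held any of the 6 motifs.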

How the data were processed

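The values deposited by the authors are raw read counts per gene. Per the methods of the study, Trimmomatic and FASTP served for trimming, STAR 2.6.0 aligned the reads to mm10, and HTSeq-count 0.11.1 counted them. The annotation and the strand setting are not given in the sources used here, so that reads of overlapping antisense genes cannot be told apart. A column of the table gives gene length in kb. All 24 columns were matched to mice by their numbers in the labels. Replicates are separate mice.

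Tests used edgeR 4.0.16 (R 4.3.3): filterByExpr, TMM scaling, all 24 libraries in 1 quasi-likelihood fit, Benjamini-Hochberg adjustment over 13520 genes, threshold 0.05. DESeq2 1.42.0 was an alternative. CPM values use TMM-scaled totals. Nearest genes used log2 CPM with a prior count of 2 and only genes whose mean reached 1 CPM. Sequences are from RefSeq (GRCm38.p6) and GENCODE M21.

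The 9 members and all gene lists were chosen with earlier results of these data known. Named genes were the members, 2 nearest genes for each, up to 6 HSC and 4 progenitor genes with the smallest p in each of 3 comparisons, the highest gene of each marker list and Mir142. A gene that this rule names is not reported here. Genes of the families, Kit, Ly6a, Tie1, Hoxb5, Itga6, Cdh5, Stab2 and genes repeated in a second comparison were added after their values were seen. Counts of 0 allow up to 3 counts, which covers counting error only.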

Additional observations from a re-analysis of the deposited data

Results flagged for a closer look

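The level of Pdzk1ip1 in female mouse miR-142 KO 3 was 6.37 CPM, while the other 5 miR-142 KO mice ran from 14.4 to 18.5 CPM. The gap to the nearest mouse took up 0.664 of the whole range of the group, above the 95% critical value of Dixon's test for 6 values. Chance flags about 1 in 20 groups of values at this limit, and 9 genes in 4 groups were examined.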

How the results depend on the processing

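The alternatives were another test or tool, 2 other scalings, 2 other filters, sex as a covariate, only the 2 groups compared, and each mouse left out; after the data were seen, each sex alone and WT without mice 1 and 4 or 3 and 6 were added. Of the values for single members under them, taken for the effects of miR-142 loss in normal and CML LSKs and of BCR-ABL in miR-142+/+ and miR-142-/- LSKs, with left-out mice counted by their lowest and highest value, 442 kept direction and call, 42 lost the call, 9 gained it and 11 turned sign; single members were not tried in the other comparisons. Counts of called members moved by over 1.5 times for BC CML against CP CML (2 in males), CP CML against WT (4 in females, 4 in males, 5 without WT mice 1 and 4), BC CML against miR-142 KO (0 in females, 3 in males) and CP CML against miR-142 KO (2 in females, 4 in males). Leaving out 1 mouse at a time gave counts of 4 to 4 for BC CML against CP CML, 4 to 6 for miR-142 KO against WT, 7 to 9 for CP CML against WT, 2 to 7 for BC CML against miR-142 KO (4 or fewer without miR-142 KO mouse 2, 4 or 5 or BC CML mouse 1, 2, 4 or 6), 7 to 9 for BC CML against WT and 6 to 7 for CP CML against miR-142 KO, and was 0 for the difference between the effects and for sex. Signs turned for 4 genes that were not called. Esam in BC CML against CP CML was 0.1657 in males and -0.1121 to 0.01384 with a mouse left out. Mecom in miR-142 KO against WT was -0.02921 with upper quartile scaling, -0.07451 in males, -0.1044 without WT mice 3 and 6 and -0.04478 to 0.1353 with a mouse left out. Pdzk1ip1 there was 0.1779 in males, 0.07067 without WT mice 1 and 4 and -0.1294 to 0.1071 with a mouse left out. Procr in BC CML against miR-142 KO was -0.06974 in females and, with a mouse left out, -0.08283 to 0.1808. Fits of 1 sex hold 3 mice a group. The cause of the other changes was not tested. The 18 nearest genes were the same 18 with a prior count of 0.5. No paired analysis was possible because the labels give mouse numbers that no 2 groups share.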
